A study of Homo sapiens with 21 samples.

Results

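The clusters of replication-dependent histone genes were examined in RUNX1 ChIP-seq peak lists from Jurkat cells, a long-established line of human T-cell leukaemia. Members were the peaks whose summit lay in 1 of 3 fixed hg19 windows: chr6:26015001-26290000 and chr6:27770001-27870000, which hold most of histone cluster 1, and chr1:149780001-149862000, which holds cluster 2. The windows span 457 kb and held 733 of the 791439 peaks of 14 lists. They were set beside the 500 kb on either side of each window, called the flanks, which held 1871 peaks in 3000 kb. Windows were chosen by position, so a member is a peak in a histone gene cluster and not a peak assigned to a histone gene. Cluster 1 also contains other genes: in the RefSeq gene order HFE, which regulates iron uptake, lies between H1-2 and H4C3.

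All cells were untreated Jurkat cells. The mutant groups were knock-in single clones carrying R232fs (a frameshift), Y287X (a stop codon) or G365R (an amino acid replacement) in RUNX1, with 2 clones each. WT had 1 sample per tag and is counted below as 1 clone. In each mutant clone the HA tag marked mutant RUNX1 and TY1 marked wild-type RUNX1 of the same cells; in WT both tags marked wild-type protein. Each clone thus gave an HA list and a TY1 list, and the 7 control samples had no list that was analysed here. R232fs and Y287X are called truncating below. Because each genotype is 1 or 2 clones, p-values measure only the spread between these clones.

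Replication-dependent histone genes encode the H2A, H2B, H3, H4 and H1 proteins that package newly made DNA. They are short, lack introns, are transcribed in bursts during S phase and end in a stem-loop instead of a poly(A) tail. Many sit in head-to-head pairs that share an upstream stretch. RUNX1 is a transcription factor needed to form blood cells, and its core binding sequence is read as TGTGGT or TGCGGT.

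The RefSeq gene table (GRCh38.p14, a different build from the peaks) named 69 such genes, 55 on chromosome 6, 13 on chromosome 1 and 1 on chromosome 12, and some of them lie outside the windows. Neighbouring genes faced away from each other in 19 pairs, 10 of them H2A with H2B. For 64 of the 69 genes the promoter table held a sequence, in 68 entries. TGTGGT or TGCGGT occurred on either strand within the 250 bases before the start of 12 of the 68 entries (17.6%), against 16.3% of all 35116 entries. The 12 entries are not 12 separate sites. H2AC7, H2BC7 and an H3C4 entry share 1 core, and H2BC5 counts in more than 1 entry. All entries of the promoter table were counted in the same way. Textbook histone promoter elements were far commoner than elsewhere: CCAAT, on either strand, in 85.3% against 32% of all entries, and TATAAA in 66.2% against 10.7%. None of the searched motifs contains another of them. A match is a description of the sequence and not a bound site.

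Shown here are 3 of the upstream stretches that hold TGTGGT, to let the arrangement be seen. Each is the last 150 bases before the annotated start, 5′ to 3′ on the gene's own strand, from RefSeq on GRCh38.p14, with the RUNX core in capitals (written ACCACA where it lies on the other strand). H2AC7 is chr6:26199294-26199443 on the minus strand, H2BC7 is chr6:26199366-26199515 on the plus strand and H4C4 is chr6:26189113-26189262 on the minus strand. An H3C4 entry has the same start as H2AC7.
H2AC7: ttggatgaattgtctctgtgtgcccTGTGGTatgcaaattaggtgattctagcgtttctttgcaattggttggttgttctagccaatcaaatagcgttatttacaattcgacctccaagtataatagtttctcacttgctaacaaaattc
H2BC7: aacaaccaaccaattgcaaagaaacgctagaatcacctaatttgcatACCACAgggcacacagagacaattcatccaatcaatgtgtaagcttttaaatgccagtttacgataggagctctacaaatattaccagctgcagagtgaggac
H4C4: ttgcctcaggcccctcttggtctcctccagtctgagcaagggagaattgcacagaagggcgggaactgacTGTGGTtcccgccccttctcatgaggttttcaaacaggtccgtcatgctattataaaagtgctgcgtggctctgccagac

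H2AC7 and H2BC7 encode an H2A and an H2B protein and are transcribed away from each other, so 1 core is read from both strands. It begins 125 bases before the start of H2AC7 and 103 before that of H2BC7, and both stretches also hold CCAAT. H4C4 encodes an H4 protein, and its core lies 80 bases before the start in a stretch that also holds TATAAA. These positions are on GRCh38 and cannot be laid over the hg19 peaks, so whether a peak covers them is not given here.

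Peaks were packed into the histone windows in every list. Window density was 81.0 to 140 summits per Mb (median 118) and flank density 29.3 to 60 (median 45.2), so no flank value reached the lowest window value. Chromosome 6 as a whole had a median of 17.7 summits per Mb and chromosome 1 of 23.5. The flanks were therefore themselves denser than their chromosomes, and the windows denser again. Averaged over HA and TY1 in each clone, the log2 ratio of window to flank density was 1.38 ± 0.14 (SD, n = 7 clones), a 2.60-fold excess. It was above 0 in 7 of 7 clones (exact sign permutation over clones, 2-sided p = 0.0156, the smallest that 128 arrangements allow; adjusted p = 0.0226 over 13 tests).

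**Figure D1:**
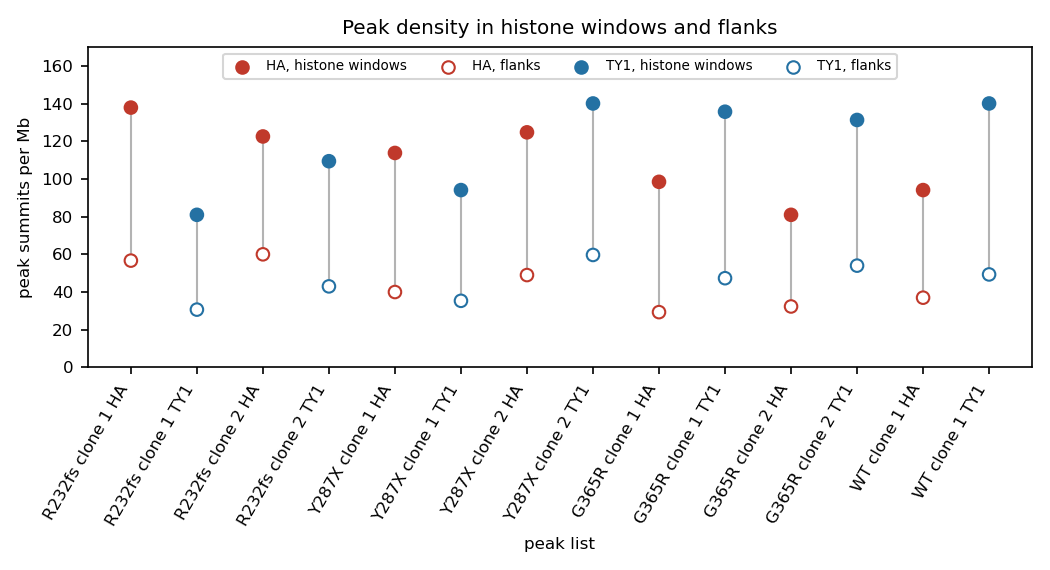
Peak summits per Mb (y axis) in the histone windows (filled) and in their flanks (open) for each of the 14 peak lists (x axis), HA in red and TY1 in blue. Every filled point, 81.0 to 140, lies above every open point, 29.3 to 60.

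The counts behind these densities were small. In the R232fs clones the windows held 63 HA and 37 TY1 peaks (clone 1) and 56 and 50 (clone 2). In the Y287X clones they held 52 and 43, and 57 and 64. In the G365R clones the HA lists had 45 and 37 and the TY1 lists 62 and 60. WT had 43 HA and 64 TY1 peaks. G365R and WT thus had fewer HA than TY1 peaks there and R232fs more, and so did their lists as a whole, which held 30563 to 86433 peaks.

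The excess differed in size between the windows. The second cluster 1 window was 4.16-fold denser than its flanks (log2 2.06 ± 0.18, n = 7 clones). The first was 2.24-fold denser (1.16 ± 0.16) and the cluster 2 window 2.51-fold (1.33 ± 0.34). All 3 were above 0 in each clone (exact sign permutation, p = 0.0156 for each, adjusted 0.0226). The difference between windows was not tested.

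**Figure D2:**
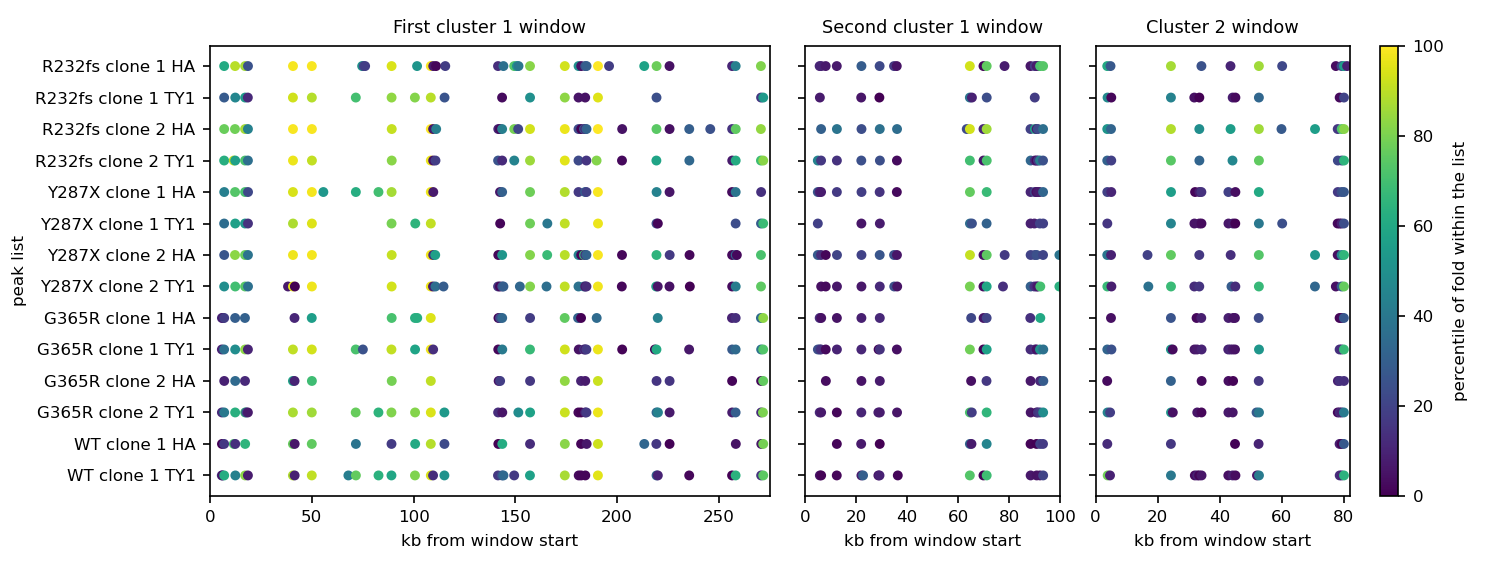
Position of every peak summit in the 3 windows (x axis, kb from the window start) for each of the 14 lists (rows), coloured by the percentile of its fold enrichment within its own list. Columns of dots recur in list after list; the regions with a median percentile over 80 all lie in the first cluster 1 window, and most dots of the second cluster 1 window are dark.

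Although peaks were dense, their fold enrichment was low. Fold is the authors' value for each peak, the pileup of fragments at the summit over the background the peak caller expected there. The median fold of window peaks was 2.40 to 3.49 per list and that of flank peaks 3.39 to 4.70. In percentiles of a list's own fold values, window peaks had a median between 11.5 and 40.6 (median list 22.4) and flank peaks between 42.1 and 57.5. No list's window median reached the lowest flank median. The mean difference was -27.34 ± 8.88 percentile points (SD, n = 7 clones), lower in 7 of 7 clones (exact sign permutation p = 0.0156, adjusted 0.0226). R232fs clone 2 stood apart at -8.6 points, against -25.5 or lower in the other 6.

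By window, the difference was -31.99 ± 13.24 points in the second cluster 1 window and -28.17 ± 11.82 in cluster 2 (exact sign permutation, p = 0.0156 and adjusted 0.0226 for both). In the first cluster 1 window it was -18.39 ± 11.74, lower in all clones but 1 (exact p = 0.0312, adjusted 0.0406).

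The low fold did not come with few fragments at the summit. Fold and p-value together fix both terms of the ratio, and they were solved for each peak (chosen after seeing the data). Summit pileup had a list median of 88.0 to 165 fragments in the windows and 31 to 62 in the flanks, ranges which do not overlap. Across lists, the median of these values was 124 fragments in the windows and 38 in the flanks. The local background was 35.9 to 58.8 fragments in the windows and 5.28 to 9.27 in the flanks. The pileup was thus 2.99-fold higher than in the flanks (log2 1.58 ± 0.29, n = 7 clones) and the background 6.11-fold higher (log2 2.61 ± 0.28). Both were higher in 7 of 7 clones (exact sign permutation p = 0.0156, adjusted 0.0226). Only called peaks enter these ratios, and a peak on a higher background needs more fragments to be called. Both ratios also come from the same fold and p-values, so they are not results separate from the fold difference. The size depended on which peaks were used: with −log10 q of at least 10 the ratios were 1.91-fold and 3.41-fold, and with lists of equal length 1.95-fold and 3.42-fold. Ranked by pileup instead of fold, window peaks stood 28.2 percentile points above flank peaks, and ranked by −log10 p 10.1 points above (exact p = 0.0156 for both).

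**Figure D3:**
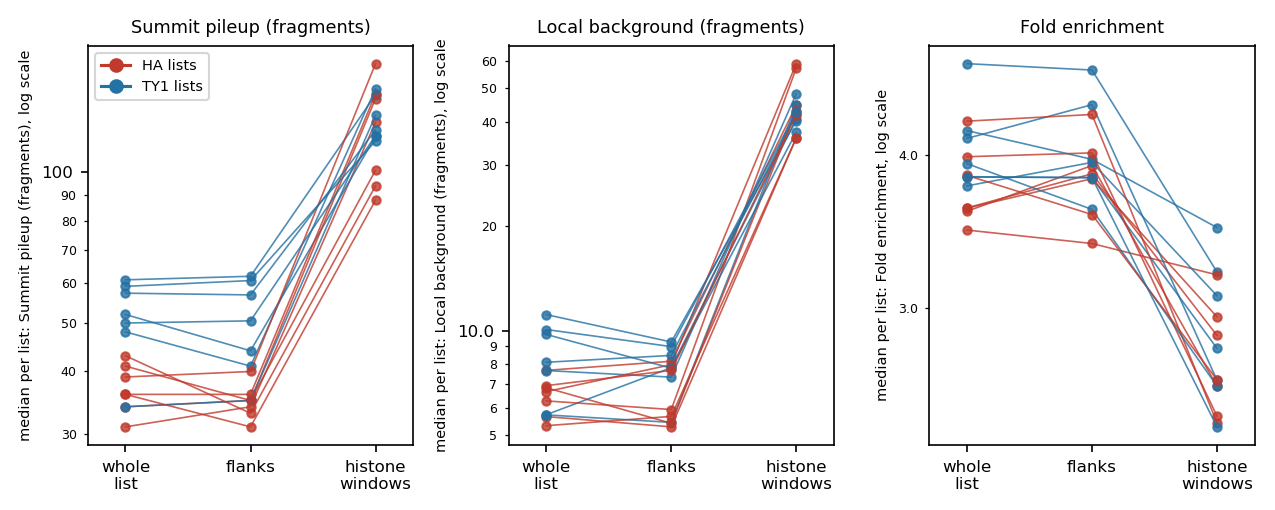
Median summit pileup, local background and fold enrichment (y axes, log scale; pileup and background in fragments) of all peaks of a list, of flank peaks and of histone window peaks (x axis), 1 line per list, HA in red and TY1 in blue. From flanks to windows pileup rises to 88.0 to 165, background to 35.9 to 58.8, and fold falls to 2.40 to 3.49.

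Which libraries the background was estimated from is not given in the sources used here. Neither copy number nor open chromatin of Jurkat at these clusters was measured, and their part in the background was not tested. In 2 lists, WT TY1 and the TY1 list of G365R clone 1, most of the solved pileups were not whole numbers. Whether those values had been scaled was not tested. Window peaks were also wider in each list except TY1 of Y287X clone 1. Its medians were 476 bp in the windows and 483 bp in the flanks. List medians were 432 to 825 bp in the windows and 366 to 530 bp in the flanks, ranges that overlap. Window peaks covered 4.55% to 12% of the window sequence, against 1.32% to 3.56% of the flanks.

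To follow single sites, summits of all lists were merged into regions when their 100 bp surrounds overlapped. The windows held 116 of the 190855 regions of the series: 64 in the first cluster 1 window and 26 in each of the other windows. Of the 116, 15 (12.9%) had a summit in all 14 lists, against 5.92% of regions in the whole series and 5.43% in the flanks. Regions in a single list made up 24.1%, against 42.3% of all regions. These shares are descriptions. Counting any peak that overlaps a region and not only its summit, 24 of the 116 (20.7%) were covered in every list, against 7.06% of all regions and 10.6% of flank regions, and 16 (13.8%) in 1 list, against 34.9% and 26.7%.

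The regions were divided by background at a limit chosen after the values were seen. Background is the lower term of fold, so the division itself favours low fold on its high side, and the values are a description. In 69 of 116 (59.5%) the median background was 20 fragments or more, as in 16.6% of all regions and 15.3% of flank regions. These 69 had a median fold of 2.21, a median percentile of 10.2 and a median pileup of 123.5 fragments over a background of 50.5; 12 of them were in all lists. The other 47 had a median fold of 3.25, percentile of 36.1, pileup of 21 fragments and background of 5.55, and 3 of them were in all lists. High background was found at 46.9% of regions in the first cluster 1 window, 76.9% in the second and 73.1% in cluster 2. Only 1 of the 69 had a median percentile over 80, against 6 of the 47.

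The sites with the highest fold lay in the first cluster 1 window. At chr6:26205447-26205694 fold was 10.7 to 47.7 in 12 lists (median 20.3, on a background of 8.99 fragments). It reached 39.1 and 47.7 in the HA lists of R232fs clones 1 and 2 and 22.9 and 28.9 in those of the Y287X clones. High fold was not confined to HA. In the TY1 lists of Y287X clones 1 and 2 the highest fold anywhere in this window was 19.1 and 25.7. The value for TY1 of clone 2 was thus above that for HA of clone 1. Within each R232fs and Y287X clone the highest TY1 fold in the window was below the highest HA fold. At chr6:26205447-26205694 the G365R and WT lists had 10.7 to 19.6. The remaining 2 lists, TY1 of R232fs clone 2 and HA of G365R clone 1, had their summit just to the left, at chr6:26204802-26205050, with fold 7.66 and 3.34. Peaks of all 14 lists overlapped both positions, so these lists differ in where the summit was placed and not in having a peak.

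At chr6:26123348-26123582 every list had a summit. Fold there was 21.9, 13.0, 24.8 and 19.8 in R232fs (HA and TY1 of clone 1, then of clone 2) and 14.6, 10.3, 19.8 and 20.8 in Y287X in the same order. G365R had 12.4, 20.5, 9.78 and 13.4, and WT 8.43 (HA) and 13.1 (TY1). The median percentile was 95.7. In raw fold the HA value was the higher of the pair in 3 of the 4 truncating clones and the lower in both G365R clones and in WT.

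At chr6:26064884-26065167 the median fold was 12.7 on a background of 8.12 fragments, and the range was 4.22 to 22.5. The 3 lowest values, 4.22, 5.34 and 5.54, were the HA lists of the G365R clones and WT, and no HA list of a truncating clone was under 19.3. Close by, chr6:26055625-26055867 had a median fold of 10.5 in 13 lists (4.62 to 21.5). The shared region of highest pileup was chr6:26189143-26189412, with a median of 320 fragments (160 to 501), a background of 32.9 and a fold of 9.42.

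Sites of the opposite kind lay in the second cluster 1 window. At chr6:27798958-27799360 all 14 lists had a summit, with 105 to 332 fragments on a background of 54.5 to 122, so fold was only 1.41 to 3.09 (median 2.22). The median percentile was 11.3. At chr6:27791800-27792131 fold was 1.95 to 3.06 (median 2.19) with a median pileup of 203 fragments. These sites would rank near the bottom of a list by fold although their pileups exceed the median pileup of every list's peaks.

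Between these extremes lay the other shared regions. In the first cluster 1 window, chr6:26021837-26022093 had fold of 2.26 to 5.03 (median 3.47) with a median of 233.5 fragments, and chr6:26027169-26027556 had 2.51 to 7.42 (4.53). Fold at chr6:26104026-26104379 was 2.71 to 12.4 (median 7.26), lowest in the WT HA list. At chr6:26172070-26172349 it was 2.45 to 8.8 (5.28): the 3 lowest values, 2.45, 2.71 and 2.45, were again the HA lists of the G365R clones and WT. At chr6:26285516-26285898 it was 1.7 to 5.75 (3.17), and at chr1:149859920-149860175 in cluster 2 it was 2.53 to 5.74 (3.67). Over all window peaks the G365R and WT lists of both tags had a median fold of 2.40 to 2.62, so that median was low with TY1 as well. The HA list of Y287X clone 1, at 2.59, lay in the same range.

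**Figure D4:**
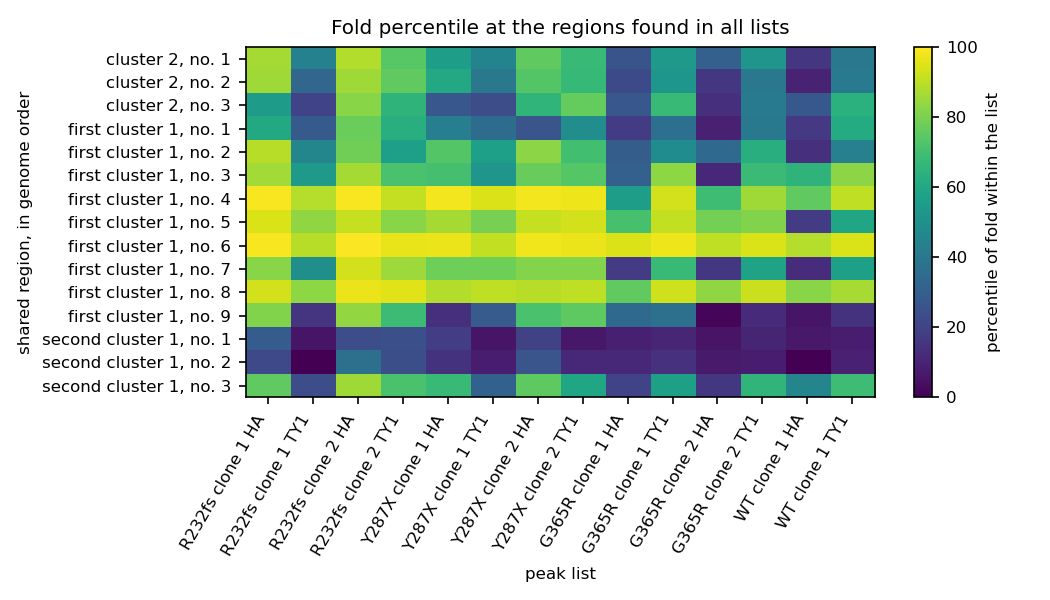
Percentile of fold within each list (colour) at the 15 regions with a summit in all 14 lists (rows, in genome order within each window) for each list (columns). Row no. 6 of the first cluster 1 window, with median percentile 95.7, is bright throughout, whereas the first pair of rows of the second cluster 1 window, with medians of 9.55 and 11.3, are dark throughout.

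Cluster 2 showed a mirror-image layout. Of 16 regions found in at least 4 lists there, 10 formed 5 pairs that mirror each other: the points midway between the members of each pair all fell within 20 bp, from 149818457 to 149818477 on chromosome 1. No other centre gave more than 3 pairs within the same tolerance of 50 bp on the summed midpoints. Members of a pair also had like values. The outer pair, chr1:149804186-149804428 and chr1:149832445-149832774, had median folds of 4.15 and 3.89, pileups of 309 and 289 fragments and backgrounds of 66.4 and 69.9, each in 14 lists. The inner pairs had folds of 1.79 to 2.32 and backgrounds of 69.7 to 105 fragments. In RefSeq, 3 pairs of chromosome 1 histone genes (H2AC18 and H2AC19, H3C14 and H3C15, H4C14 and H4C15) share at least 200 identical upstream bases, against 1 pair on chromosome 6, the shared start of H2AC7 and H3C4. Reads from near-identical copies may be split between them or counted at either. A cluster 2 site and its mirror site are therefore not taken as independent observations. The shared bases were read on GRCh38, so whether the mirrored regions lie in them is not given here. Whether reads were split or counted in this way, and what that adds to fold or background, was not tested.

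Whether mutant and wild-type RUNX1 differed at these clusters was asked first of the number of peaks. Per 10000 peaks of a list, the windows held 6.48 to 14.7 (median 9.47). R232fs had 7.29 ± 1.15 with HA and 8.84 ± 0.54 with TY1 (SD, n = 2 clones). Y287X had 9.23 ± 1.12 and 8.25 ± 0.56, and G365R 13.4 ± 1.84 and 10.3 ± 0.77. WT had 11.5 and 10.8. HA exceeded TY1 in both Y287X and both G365R clones and fell short of it in both R232fs clones. Averaged over the 6 mutant clones the ratio of HA to TY1 was 1.06 (log2 0.08 ± 0.31), and the difference was within the spread (exact permutation of tags within genotype, 2-sided p = 0.528, adjusted 0.572). The ratio in WT was 1.07.

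That average depended on how lists of unequal length were treated. With peaks of −log10 q of at least 10 only, the ratio was 1.19 (exact permutation p = 0.0185; 1.16 in WT), and with every list shortened to its top 30563 peaks by −log10 p it was 1.22 (exact p = 0.0185; 0.969 in WT). HA was higher in 6 of 6 mutant clones under both. Divided by the flank peaks of the same list, the ratio was 1.01 (exact p = 0.935). The percentile of window peaks showed a mean HA minus TY1 difference of 0.17 ± 4.08 points (n = 6 clones, exact permutation p = 0.991).

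The truncating genotypes were compared with G365R and WT for the density excess. The log2 ratio of window to flank density was 1.32 ± 0.11 in the 4 truncating clones and 1.45 ± 0.17 in the other 3 (exact permutation of clones, 35 arrangements, p = 0.257). R232fs and Y287X lists differ from G365R and WT lists in kind: peaks of −log10 p of 290 or more made up 0.728% to 5.08% of the former and 0.235% to 0.438% of the latter, and the labels do not say why. So genotype and kind of list cannot be told apart in this comparison.

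Regions of 1 tag only, or of G365R and WT only, were about as rare by summits as among all regions. Regions of truncating lists only were rarer than among all regions. These shares were not tested. By summits, 4 of 116 regions (3.45%) were in at least 2 HA lists and no TY1 list, against 3.92% of all regions, and 3 (2.59%) were in at least 2 TY1 lists and no HA list, against 3.74%. The 4 HA regions were chr6:26116622-26116909, chr6:26125943-26126207, chr6:26228209-26228436 and chr6:27848140-27848388. Each was in 2 lists with fold of 1.59 to 4.61, and no TY1 peak overlapped them. The 3 TY1 regions, chr1:149804761-149804999, chr1:149831785-149832126 and chr6:27798556-27798846, had fold of 1.59 to 3.05 in G365R and WT lists. They were different in kind: 3 to 5 HA lists had a peak that overlapped each of them with its summit elsewhere, so by overlap 0 regions were covered in TY1 lists alone, against 3.47% of all regions, and the same 4 (3.45%) in HA lists alone, against 4.3%. Likewise 9 regions (7.76%, against 18.7% of all regions) had summits in truncating lists only, each in 2 or 3 lists. Besides chr6:26125943-26126207 and chr6:27848140-27848388 these were chr1:149840040-149840250, chr1:149850604-149850836, chr1:149857335-149857538, chr6:26125535-26125866, chr6:26180538-26180813, chr6:27804712-27804990 and chr6:27869694-27869898. There were 5 (4.31%, against 4.74%) with summits in G365R or WT lists only, the 3 TY1 regions together with chr1:149812455-149812895 and chr6:26020682-26020981, and at each of those 5 a truncating list had an overlapping peak. By overlap of peaks, 14 regions (12.1%) were covered in at least 2 truncating lists and no other, against 22.2% of all regions and 15.8% of flank regions. In G365R and WT lists alone 0 were covered, against 4.32% and 4.44%.

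At the 15 regions with a summit in every list, fold was compared between tags as a rank. Within each list the fold of the 11291 regions shared by all lists was ranked and turned into normal scores, in which 1 unit is 1 SD of the list. In R232fs clone 1 all 15 histone regions had a higher score with HA than with TY1 (median difference 0.86), and in R232fs clone 2 also 15 of 15 (0.53). In the Y287X clones 13 of 15 were higher in each (medians 0.65 and 0.37). In G365R the count was 6 and 8 of 15 (medians -0.04 and 0.04) and in WT 6 of 15 (-0.09). Over all 11291 regions the median difference of each clone lay within 0.02 of 0, and 49.4% to 51.5% of regions were higher with HA. This rank differs from the percentile within the whole list, which also depends on how many weaker peaks a list holds.

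**Figure D5:**
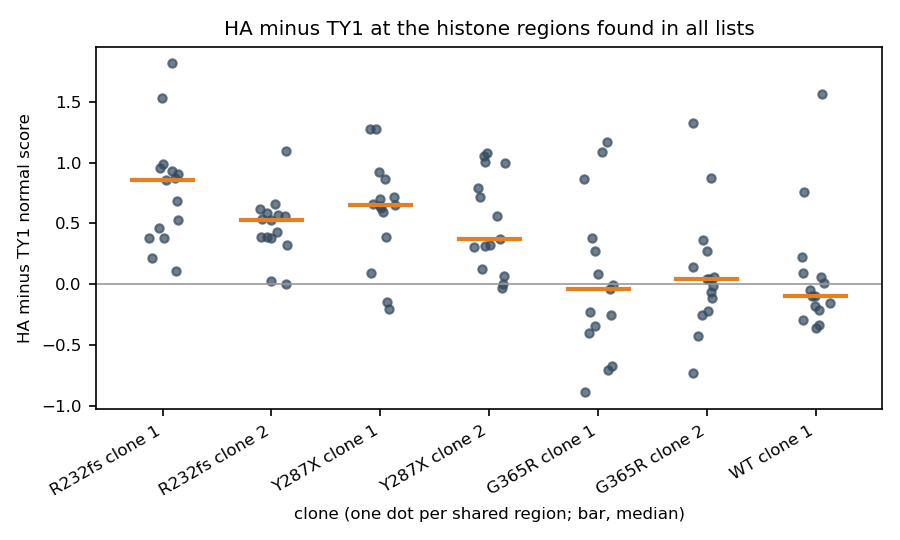
HA minus TY1 difference in normal score (y axis) at each of the 15 shared histone regions (dots) in the 7 clones (x axis), with the median as an orange bar. Medians are 0.37 to 0.86 in the R232fs and Y287X clones and -0.09 to 0.04 in the G365R and WT clones.

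The fit without a clone term called none of the 15 regions in any genotype (limma, Benjamini-Hochberg adjustment over all shared regions), and 0% of the 11291. At an unadjusted p under 0.05 it had 6 of 15 in R232fs, where 12.1% of all regions had one, 7 in Y287X (4.1%) and 3 in G365R (5.23%). HA and TY1 lists of 1 clone come from the same cells, and with the clone as a term the fit called more. In R232fs, 8 of 15 regions were higher with HA and 0 lower, where 21.7% of all shared regions were called, 10.4% higher and 11.3% lower. Both members of the outer mirrored pair of cluster 2 are among the 8, and they are not taken as independent observations. This fit had 3 residual degrees of freedom. The lowest adjusted p-values among the 8 were at chr6:26123348-26123582 (score difference 0.75 ± 0.14 SE, limma adjusted p = 0.0113) and chr6:26064884-26065167 (1.01 ± 0.19, adjusted p = 0.0122). The calls depended on the R232fs clones. Without clone 1 the region called was chr6:26064884-26065167 (score difference 1.093). Without clone 2 it was chr6:27798958-27799360 (1.815), which is not among the 8. Leaving out either Y287X clone left 5 of the 8.

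In Y287X the paired fit called 1 region higher, chr6:27841056-27841347 (1.18 ± 0.18, limma adjusted p = 0.0365), where 0.815% of all regions were called, 0.266% higher and 0.549% lower. At that site fold was 4.43 with HA and 3.12 with TY1 in clone 1, and 5.25 and 4.21 in clone 2. The call was lost without either Y287X clone and without either G365R clone. In G365R it called 1 region, lower with HA, chr6:26032071-26032380 (-0.71 ± 0.15, adjusted p = 0.0433), where 4.08% were called, 2.48% higher and 1.6% lower. Fold there was 3.18 with HA and 7.63 with TY1 in clone 1, and 2.42 and 5.04 in clone 2, so the HA value was under the TY1 value in both. The call was kept with WT left out and lost when any 1 of the 6 mutant clones was left out. Without either R232fs clone the 1 region called was another one, chr6:27798958-27799360, higher with HA (1.21, limma adjusted p = 0.0455 and 0.0494). At chr6:26032071-26032380 the WT fold was 4.57 with HA and 7.1 with TY1, with no test within that genotype.

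The difference between genotypes was tested itself, as the mean HA minus TY1 of R232fs and Y287X minus that of G365R. Without the clone term it called 0 of 15 regions (3 at an unadjusted p under 0.05, which 10.4% of all regions had). With it, 5 of 15 were higher in the truncating genotypes and 0 lower, where 17.1% of all regions were called, 8.56% higher and 8.53% lower. They were chr6:26032071-26032380 (1.29 ± 0.19 SE, limma adjusted p = 0.00699), chr6:27841056-27841347 (1.28 ± 0.22, adjusted p = 0.0101) and chr6:26064884-26065167 (1.24 ± 0.24, adjusted p = 0.014). The other two, chr6:26172070-26172349 and chr6:26123348-26123582, had differences of 0.77 and 0.63. Without G365R clone 1 none was called and without G365R clone 2 only 1. The kind of list again moves with this split, and its part was not tested.

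Not every histone region followed that split. At the low-fold sites chr6:27791800-27792131 and chr6:27798958-27799360 HA scored above TY1 in G365R as well, by 1.02 ± 0.29 and 1.21 ± 0.34 (limma adjusted p = 0.086 and 0.0872 with the clone term). Their truncating minus G365R differences were -0.20 ± 0.35 and -0.18 ± 0.42 (limma adjusted p = 0.722 and 0.797). In WT, where both tags marked wild-type protein, HA minus TY1 was 1.56 at chr6:27791800-27792131 and -0.05 at chr6:27798958-27799360. There was no test within WT. At chr6:26189143-26189412, the region of highest pileup, the HA minus TY1 difference was 0.07 ± 0.15 in R232fs, -0.01 ± 0.15 in Y287X and -0.23 ± 0.15 in G365R, none past the threshold (limma adjusted p = 0.775, 0.981 and 0.4).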

How the data were processed

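The 14 peak lists, 1 per library, were narrowPeak tables made by the authors. CASAVA 1.8, Bowtie2 2.2.9 and MACS2 2.2.7.1 on hg19 are named in the submitters' processing notes, and the caller's settings and control libraries are not stated in what was used here. The deposited values per peak were a fold enrichment (a linear ratio), −log10 p and −log10 q, a score and a summit offset, all belonging to the authors' calls. A peak list carries no library depth. Peaks outside chromosomes 1 to 22 and X (1.41% to 2.17% of a list) were left out.

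Fold was read as (pileup + 1) / (background + 1) and p as a Poisson tail, which were solved for pileup and background. In 12 lists at least 99.99% of pileups were whole within 0.05, and in the other two 6.81% and 8.08%. Peaks of −log10 p of 290 or more (0 to 4 per list in the windows) could not be solved and were left out of background medians and ranked highest for pileup. The members and lists were chosen with earlier results of these data known. Clones are replicates: window and flank were compared by exact permutation, and 13 such tests were adjusted by Benjamini-Hochberg. Normal scores at 11291 shared regions were compared with limma 3.58.1 (trend, threshold 0.05) in R 4.3.3, tested on simulated data, with 8 groups. WT, with 1 list per tag, was assumed to have the spread of the other groups. Named regions were those with a summit in all lists or in at least 2 lists of 1 tag or 1 genotype class and none of the other. Exceptions chosen after their values were seen were the regions of highest fold in under 14 lists, the mirrored cluster 2 regions and the background limit of 20 fragments. Replicate numbers pair the lists because equal numbers mark 1 clone, per the clone names of the deposited lists; deviations of HA and TY1 correlated with r = 0.792 (R232fs), 0.702 (Y287X) and 0.503 (G365R). Python 3.11.15, numpy 2.4.6, pandas 2.3.3, scipy 1.17.1 and matplotlib 3.10.9 were used. Alternatives were a −log10 q minimum, lists of equal length, cluster 1 only, inner flanks, covered bases, other ranks, other region widths, a clone term and leaving out each clone.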

Additional observations from a re-analysis of the deposited data

Results flagged for a closer look

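The HA minus TY1 difference in the share of a list's peaks that lay in the histone windows had opposite signs in the R232fs clones and in those of the other mutant genotypes. On the log2 scale it was -0.19 and -0.38 in the R232fs clones (mean -0.28), 0.21 and 0.10 in the Y287X clones (mean 0.16) and 0.44 and 0.32 in the G365R clones (mean 0.38). R232fs thus differed from Y287X by -0.44 and from G365R by -0.67. The differences were not tested. List length moves with them: R232fs HA lists were the longer of each pair and G365R HA lists the shorter. With every list shortened to the same length the difference was above 0 in all 6 mutant clones, at 0.40 and 0.22 for the R232fs clones, 0.36 and 0.20 for the Y287X clones and 0.25 and 0.26 for the G365R clones. It was also above 0 in all 6 with peaks of −log10 q of at least 10, at 0.33 and 0.15 in the R232fs clones.

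The median percentile of fold of window peaks was higher with HA in both R232fs clones (3.37 and 5.68 points, mean 4.52) and lower in both Y287X clones (-1.32 and -0.82, mean -1.07), a difference of 5.6 points that was not tested. With lists of equal length the R232fs clones had 2.53 and -7.17 points and the Y287X clones 1.95 and 1.35, and with −log10 q of at least 10 they had 1.14 and -2.05, and -0.41 and 10.1, so the opposite signs were not kept.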

How the results depend on the processing

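The density excess kept its direction and stayed past the threshold in all 13 alternatives (2.16-fold to 3.33-fold), as did the pileup and background ratios in 12 each. With −log10 q of at least 10 these were 1.91-fold and 3.41-fold, and with equal list lengths 1.95-fold and 3.42-fold. The fold percentile difference of -27.34 points turned to 28.22 with ranks of summit pileup and 10.08 with ranks of −log10 p (exact p = 0.0156 for both) and kept its direction in the other 12. Leaving out each clone in turn gave 2.52-fold to 2.65-fold density and -30.46 to -26.01 percentile points; with 6 clones the smallest exact p is 0.0312.

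The HA minus TY1 share passed the threshold at −log10 q of at least 10 (0.25 on the log2 scale) and with equal lengths (0.28), and without 1 clone ran from 0.01 to 0.18. The HA minus TY1 percentile turned to -0.81 at −log10 q of at least 10, -4.02 with equal lengths and -2.2 in cluster 1 only (exact p = 0.75, 0.185 and 0.324). It was 5.53 with ranks of pileup (exact permutation of tags p = 0.0463, but 0.0625 when paired by clone), and without 1 clone it ran from -0.94 to 1.42. The truncating minus G365R and WT density difference turned from -0.13 to 0.22 at −log10 q of at least 10 and to 0.32 with equal lengths (exact p = 0.143 and 0.0857). The cause of these changes was not tested.

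For the 15 shared regions, the fit with a replicate block called 8 in R232fs, 1 in Y287X, 1 in G365R and 5 for truncating minus G365R, against 0 without the block. With the block and without 1 clone the counts ran from 1 to 8, 0 to 1, 0 to 1 (a different region, of the opposite sign, without either R232fs clone) and 0 to 5 (3 for truncating minus G365R without Y287X clone 1 or R232fs clone 1); without the block all stayed at 0. Ranks of −log10 p gave 4 for truncating minus G365R, all higher, where 282 of the 11291 shared regions were called, 203 of them higher. The shares of all regions called in the fits without 1 clone are not given here. The exact tests paired by clone gave p = 0.531 for the share and 0.969 for the percentile, and the share stayed past the threshold at −log10 q of at least 10 and with equal lengths (exact p = 0.0312 for both). The pairing ended the call on the percentile with ranks of pileup, given above, and changed no other call. Peak lists hold no depth, so a region missing from a list may lie under its threshold.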
